A study of Mus musculus with 12 samples.

Results

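Integrins and laminins, the cell surface receptors and the ligands that join a cell to its basal lamina, were followed in the auditory nerve of the mouse through the weeks after birth. The group comprised every gene whose single annotated symbol names an integrin alpha or beta chain or a laminin alpha, beta or gamma chain. This gave 35 genes of 18193 on the array: 16 integrin alpha chains, 9 integrin beta chains and 10 laminin chains. Each gene was read on the probe set with the highest mean over all arrays. The tissue came from CBA/CaJ mice of both sexes at postnatal day (P) 0, P3, P7, P10, P14 and P21, with 2 mice and 2 arrays at each stage. Each array holds the RNA of 1 mouse, from both ears together. The nerve was taken with its modiolus, the bony core around it, and with some sensory epithelium left on it. No mouse was treated, and P0 served as the baseline.

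A basal lamina is a thin sheet of laminin and type IV collagen that surrounds every Schwann cell and blood vessel. Laminins are trimers of an alpha, a beta and a gamma chain, and the alpha chain carries most of the binding sites for receptors. Integrins are pairs of an alpha and a beta chain that hold a cell to laminin, collagen or fibronectin and pass signals inwards. In peripheral nerve, Schwann cells need laminin containing the alpha2 chain, and integrin beta1, to sort axons before they myelinate them, and integrin beta4 and dystroglycan hold the finished sheath to its lamina.

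Array medians lay between 6.70 and 6.79 (log2). The mean of 6 matched Schwann cell markers of 8 listed was 12.31 and 12.36 at P10, against 10.07 and 10.03 at P0. Of the 6, 5 were called higher at P10, while Sox10 was not called (-0.39). Central glia markers rose too. The mean of 5 matched oligodendrocyte markers was 9.69 and 9.38 at P10, against 5.35 and 5.51 at P0. That of 5 astrocyte markers was 9.88 and 9.61, against 8.33 and 8.08. In bulk tissue, fewer cells of a type and less RNA per cell cannot be told apart. The P21 arrays stood apart in the 3′ to 5′ balance of Actb, which compares probes at the 2 ends of that transcript and serves as a measure of how complete the RNA is. The balance was 2.32 and 2.03 (log2) at P21, against 0.81 to 1.41 on the other 10 arrays. At P14 the animals differed: the mean of 8 neutrophil and marrow markers was 11.85 in replicate 1 and 9.42 in replicate 2.

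A member was called when its adjusted p in limma was under 0.05 and its fold change over 1.5. In all, 23 of 35 members were called in at least 1 of 9 comparisons between stages, against 36.1% of all 45037 probe sets and 42.3% of genes. The first calls came at P3, when 1 member was higher and 3 were lower than at P0 (0.981% and 2.8% of all probe sets). At P7, 7 members were higher and 3 lower than at P0 (5.44% and 5.68% of probe sets). At P10 the counts were 5 higher and 8 lower (9.24% and 10.1% of probe sets). At P14 they were 8 higher and 7 lower (10.2% and 11.3% of probe sets). At P21 they were 8 higher and 10 lower (12.4% and 14.9% of probe sets).

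These counts depended on single arrays at the early stages. Of the calls against P0, 0 of 4 at P3, 3 of 10 at P7, 6 of 13 at P10, 10 of 15 at P14 and 15 of 18 at P21 held whichever 1 array was left out. Because members are represented by their brightest probe set, the share of all genes read in the same way is also relevant. At P10, 14.3% of the 35 members were called higher and 22.9% lower than at P0, against 11% and 13.5% of genes. Of genes, 1.61% were higher and 3.78% lower at P3 than at P0, 7.54% and 7.44% at P7, 12.6% and 14.8% at P14, and 15.3% and 16.9% at P21. The median change of the members at P10 was 0.11 (log2), and that of all genes -0.04.

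Between successive stages, most calls came in the step between P3 and P7. At P7, 7 members were higher and 1 was lower than at P3 (6% and 3.98% of probe sets, 7.81% and 5.36% of genes), and 5 of the 7 were laminin chains. Of these 8 calls, those of Itga10, Itga8, Lama2 and Lamc1 held whichever 1 array was left out, and without P7 replicate 1 the count was 5. The next steps gave 0 calls at P10 against P7 (0.104% of probe sets higher and 0.127% lower) and 0 at P14 against P10 (0% of probe sets in either direction). At an unadjusted p under 0.05 with a fold over 1.5, limma gave 2 members in the step to P10, Itgb3 and Lamc3, and 1 in the step to P14, Lama1. The methods' t-test without adjustment gave 1 and 0. At P21, 2 members were called against P14, both lower (0.722% of probe sets were higher and 1.73% lower). That count turned on the P14 mice: it was 0 without P14 replicate 1 and 7, all lower, without P14 replicate 2. It was 1 without either P7 array, either P10 array or P21 replicate 1, and 5 when all probe sets of a gene were averaged.

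**Figure D1:**
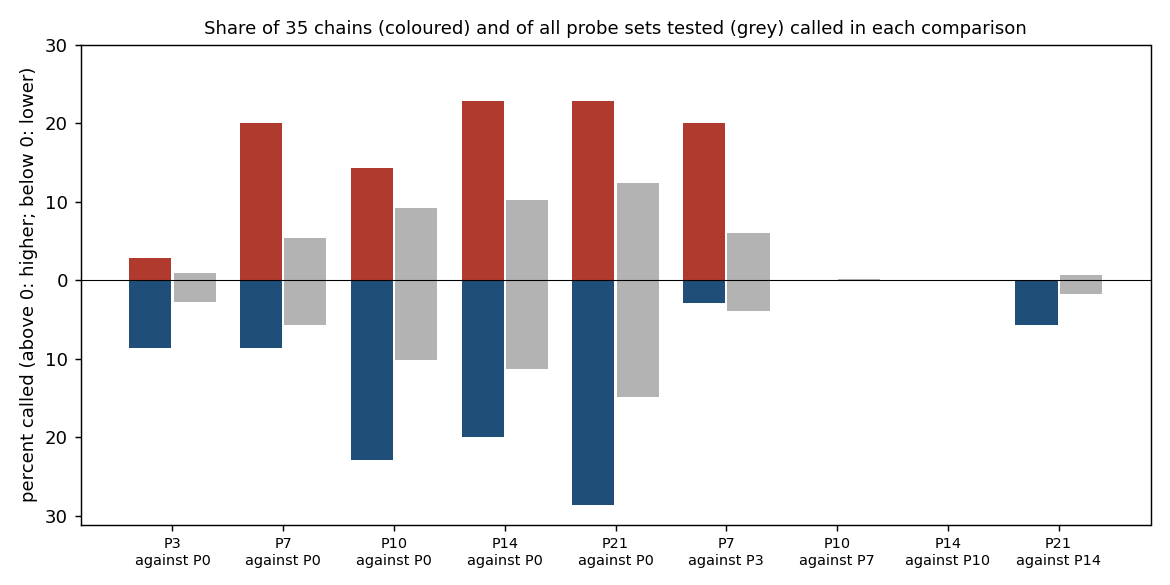
Percent of the 35 chains (coloured bars) and of all probe sets tested (grey bars) called in each of 9 comparisons, with calls higher in the later stage above 0 and calls lower in it below 0. Shares of genes read like the chains, on the brightest probe set, are not drawn. At P10 against P0 these were 11% higher and 13.5% lower, against 9.24% and 10.1% of all probe sets. At P7 against P3, 7 chains were higher and 1 lower, and no chain was called at P10 against P7 or at P14 against P10.

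Over the whole course, the moderated F-test called 23 of 35 members, against 38.3% of all probe sets and 45.1% of genes. It called 9 of 10 laminin chains, 8 of 16 integrin alpha chains and 6 of 9 integrin beta chains. Of the 23, 6 had their highest mean at P0, 5 at P7 and 7 at P21, while 10 had their lowest at P21, 6 at P3 and 5 at P0. Highest and lowest stages were not counted for all genes, so these counts cannot be read as particular to the members. With both P21 arrays left out, the test over 5 stages called 19. Only Itgam, Itgax and Itgb6 were dim at any stage, meaning that both arrays of that stage lay in the lowest 25% of values.

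**Figure D2:**
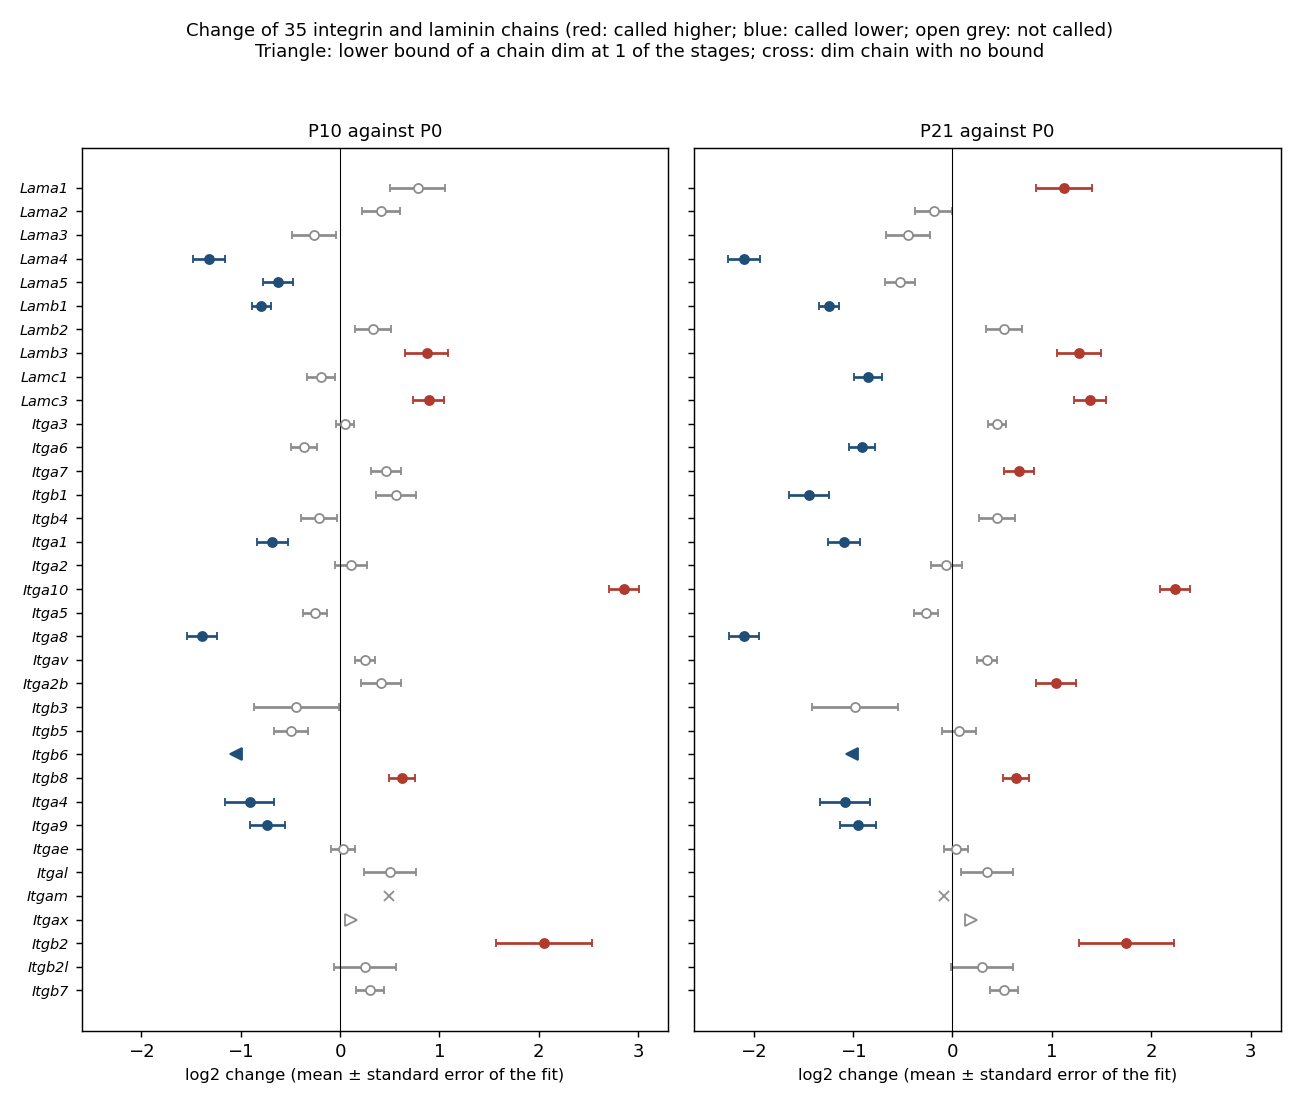
Log2 change of each of the 35 chains at P10 against P0 (left) and at P21 against P0 (right), as the fitted value and its standard error. Triangles mark the lower bound of a chain that was dim at 1 of the stages, and crosses a dim chain with no bound. At P10, Itga10 lay farthest to the right (2.86), and Itga8 changed by -1.39, while Itgb6 has only a bound.

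Among laminin chains, 3 that form vessel and early nerve laminins were lower at P3 than at P0. Lama4, the alpha chain of endothelial laminin that Schwann cells also make, read 12.15 and 11.93 at P0, 10.90 and 11.18 at P3, 11.09 and 11.23 at P7, 10.73 and 10.71 at P10, 10.72 and 10.29 at P14, and 9.84 and 10.05 at P21. Both arrays of every later stage lay below both P0 arrays. Lama4 fell by 1.0 ± 0.16 (log2, standard error) at P3 (adjusted p = 0.00827) and by 1.32 ± 0.16 at P10 (adjusted p = 0.00024), a fold of 2.5. Without P0 replicate 1 or P3 replicate 1 the call at P3 was lost (adjusted p = 0.0877 and 0.0583), while those at P7, P10 and P14 held without any 1 array. The mean of 7 endothelial markers was 8.31 and 8.34 at P10, against 8.76 and 8.62 at P0, and its part in the fall of Lama4 was not tested.

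Lamb1, the beta chain that pairs with most laminin alpha chains before birth, read 13.25 and 13.11 at P0, 12.54 and 12.64 at P3, 12.78 and 12.96 at P7, 12.40 and 12.37 at P10, 12.44 and 12.40 at P14, and 11.93 and 11.95 at P21. It fell by 0.59 ± 0.10 at P3 (adjusted p = 0.0112) and by 0.79 ± 0.10 at P10 (adjusted p = 0.000321). All 10 later arrays lay below both P0 arrays. The call at P3 was lost without P0 replicate 1 or P3 replicate 1 (adjusted p = 0.109 and 0.0713).

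Lamc1, the gamma chain of nearly all nerve and vessel laminins, dipped and recovered. It read 11.44 and 11.19 at P0, 10.47 and 10.79 at P3, 11.47 and 11.51 at P7, 11.14 and 11.11 at P10, 11.18 and 11.09 at P14, and 10.34 and 10.58 at P21. The P3 arrays lay below those of P0, P7, P10 and P14. Lamc1 fell by 0.68 ± 0.14 at P3 against P0 (adjusted p = 0.0205), a call lost without P0 replicate 1, P0 replicate 2 or P3 replicate 1 (adjusted p = 0.171, 0.0546 and 0.116). It rose by 0.86 ± 0.14 at P7 against P3 (adjusted p = 0.00287), which held without any 1 array.

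Lama2, the alpha chain of the Schwann cell laminin that is mutated in congenital muscular dystrophy, had the same low point. Its levels were 11.72 and 11.37 at P0, 10.79 and 11.19 at P3, 12.29 and 12.42 at P7, 12.15 and 11.77 at P10, 12.04 and 11.79 at P14, and 11.22 and 11.49 at P21. Both P7 arrays lay above all others, and both P3 arrays below all others. The rise at P7 against P3 was 1.36 ± 0.19 (adjusted p = 0.00144), a fold of 2.58, and held without any 1 array. Against P0, Lama2 was 0.81 ± 0.19 higher at P7 (adjusted p = 0.0162), a call lost without P0 replicate 2 or either P7 array (adjusted p = 0.128, 0.067 and 0.0789). Its values at P10, 11.96 ± 0.27 (SD, n = 2), against 11.54 ± 0.25 at P0, did not pass the test.

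Lamb2, the beta chain enriched at the neuromuscular junction and present in nerve, read 8.90 and 8.99 at P0, 8.58 and 8.64 at P3, 9.39 and 9.39 at P7, 9.37 and 9.18 at P10, 9.54 and 9.28 at P14, and 9.16 and 9.77 at P21. The P3 arrays were again the lowest. It rose by 0.78 ± 0.18 at P7 against P3 (adjusted p = 0.0157), and leaving out any of the 4 arrays of those stages ended the call (adjusted p = 0.0567 to 0.0891). Lama1, the alpha chain of early embryonic and brain surface basal laminae, read 7.42 and 6.75 at P0, 6.49 and 6.23 at P3, 7.78 and 7.80 at P7, 8.0 and 7.73 at P10, 8.75 and 8.30 at P14, and 7.82 and 8.59 at P21. It rose by 1.43 ± 0.28 at P7 against P3 (adjusted p = 0.00741). At P14 it was 1.44 ± 0.28 above P0 (adjusted p = 0.0028), which held without any 1 array. Without P7 replicate 1 the step to P7 had an adjusted p of 0.05 and was no longer called.

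Lamb3 and Lamc3 were higher at later stages. Lamb3, the beta chain of the laminin under epithelia, read 5.25 and 5.30 at P0, 5.71 and 5.29 at P3, 5.97 and 6.49 at P7, 6.11 and 6.17 at P10, 6.07 and 6.44 at P14, and 6.77 and 6.31 at P21. It rose by 0.87 ± 0.22 at P10 against P0 (adjusted p = 0.013), and leaving out any of those 4 arrays ended the call (adjusted p = 0.0569 to 0.0698). Its call at P7 against P3 (0.73 ± 0.22, adjusted p = 0.0475) was lost on leaving out any 1 of 8 arrays, with an adjusted p between 0.0505 and 0.25. Against P0, its call at P7 (0.96) was lost without either P0 array or P7 replicate 2 (adjusted p = 0.0817, 0.0688 and 0.0922), and its call at P14 (0.98) without P14 replicate 2 (adjusted p = 0.057).

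Lamc3, a gamma chain of vessel, retinal and cortical basal laminae, read 6.54 and 6.46 at P0, 6.05 and 6.51 at P3, 6.64 and 6.71 at P7, 7.49 and 7.29 at P10, 7.72 and 7.63 at P14, and 8.02 and 7.73 at P21. It rose by 0.89 ± 0.16 at P10 (adjusted p = 0.00205) and by 1.17 ± 0.16 at P14 against P0 (adjusted p = 0.000346). Both calls held without any 1 array, and all arrays after P7 lay above all earlier ones.

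Lama5, the alpha chain of the most widespread adult laminin, read 8.38 and 8.43 at P0, 7.90 and 8.02 at P3, 7.79 and 7.94 at P7, 7.77 and 7.79 at P10, 7.49 and 7.86 at P14, and 8.04 and 7.71 at P21. It fell by 0.62 ± 0.15 at P10 (adjusted p = 0.0092), a call lost without P0 replicate 2 or P10 replicate 1 (adjusted p = 0.0566 and 0.0562). At P14 it fell by 0.73 ± 0.15 (adjusted p = 0.00359), and without P14 replicate 1 the fall was 0.54, under a fold of 1.5. All 10 later arrays lay below both P0 arrays. Lama3, the alpha chain of epithelial laminin, was the only laminin chain called neither between stages nor by the F-test, with stage means between 5.57 and 6.09. Its change at P21 against P0 (-0.45) passed the test without P21 replicate 2.

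**Figure D3:**
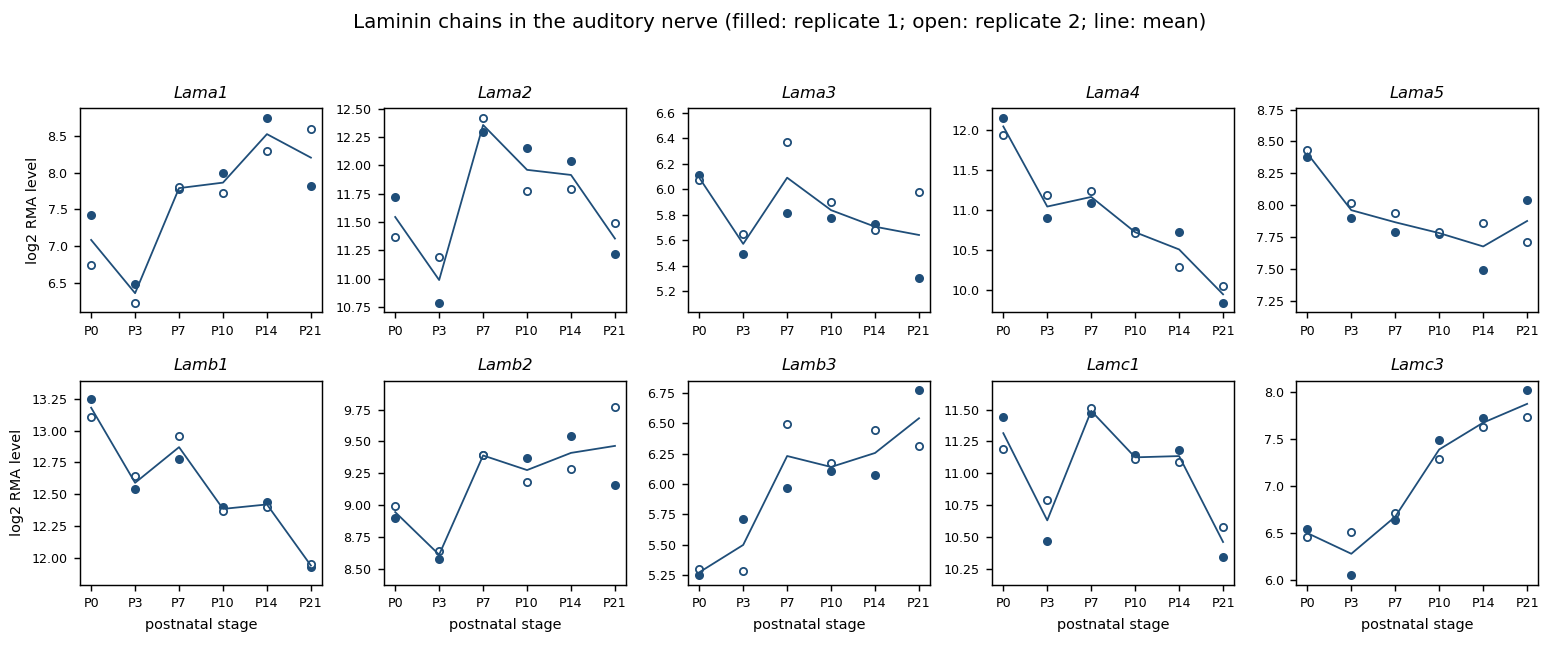
Log2 RMA level of the 10 laminin chains on each of 12 arrays at P0, P3, P7, P10, P14 and P21 (stages evenly spaced, filled points replicate 1, open points replicate 2, line the mean, each panel with its own axis). Lama2, Lamc1 and Lamb2 were low at P3 and higher at P7, whereas Lama4 and Lamb1 were highest at P0.

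Of the 5 chains of laminin receptors, Itgb1, Itga7 and Itga6 were called, at P7, P14 or P21, and Itga3 and Itgb4 were called in no comparison. Itgb1, the beta chain of most laminin and collagen receptors, read 9.77 and 9.69 at P0, 9.85 and 9.50 at P3, 10.53 and 10.33 at P7, 10.32 and 10.26 at P10, 10.05 and 9.40 at P14, and 8.20 and 8.38 at P21. It was highest at P7, 0.76 ± 0.20 above P3 (adjusted p = 0.0282) and 0.70 ± 0.20 above P0 (adjusted p = 0.0354). The first call was lost without P3 replicate 2 or either P7 array (adjusted p = 0.161, 0.176 and 0.0575). The second was lost without either P0, P7 or P10 array (adjusted p = 0.0544 to 0.214). Both P7 arrays also gave the highest values of Lama2, its main nerve ligand.

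Itga6, which pairs with beta1 early and with beta4 in myelinating Schwann cells, read 12.71 and 12.61 at P0, 12.39 and 12.48 at P3, 12.67 and 12.83 at P7, 12.28 and 12.32 at P10, 12.36 and 12.16 at P14, and 11.57 and 11.92 at P21. Levels up to P14 lay within 1 log2 unit of each other and no comparison before P21 was called. Itga7, the alpha7 laminin receptor of muscle and Schwann cells, read 6.81 and 6.76 at P0, 6.81 and 6.51 at P3, 7.33 and 7.10 at P7, 7.46 and 7.04 at P10, 7.51 and 7.39 at P14, and 7.46 and 7.44 at P21. It rose by 0.67 ± 0.15 at P14 against P0 (adjusted p = 0.00801), a call lost without P14 replicate 1 (adjusted p = 0.0524).

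Itgb4, the partner of alpha6 in the mature Schwann cell, read 7.80 and 7.60 at P0, 7.04 and 7.36 at P3, 7.65 and 7.64 at P7, 7.75 and 7.23 at P10, 7.97 and 7.70 at P14, and 8.05 and 8.25 at P21. It was lowest at P3 and highest at P21, and the F-test called it (adjusted p = 0.0204), but no single comparison did. Itga3, another laminin receptor chain, changed by less than 1.5-fold over the course, with stage means between 8.04 and 8.61.

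Among collagen receptor alpha chains, Itga10 showed the largest change of all 35 members at P10. Itga10, a collagen receptor known from cartilage, read 7.39 and 7.03 at P0, 8.11 and 7.74 at P3, 10.10 and 9.98 at P7, 10.04 and 10.10 at P10, 9.72 and 9.64 at P14, and 9.50 and 9.41 at P21. Both P7 arrays lay above both P3 arrays by a wide margin, and no later array overlapped those of P0 or P3. Itga10 was 2.86 ± 0.15 higher at P10 than at P0 (adjusted p = 1.75e-06), a fold of 7.26, and 2.11 ± 0.15 higher at P7 than at P3 (adjusted p = 4.18e-05). It was also the only chain called higher at P3 (0.71 ± 0.15, adjusted p = 0.0233), a call lost without P0 replicate 2 or P3 replicate 1 (adjusted p = 0.149 and 0.129).

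Skeletal marker lists also differed between these stages. The mean of 6 cartilage markers was 8.77 and 9.08 at P7, against 10.10 and 9.51 at P3, but the list was split. Matn1 (-3.73), Comp (-2.71) and Sox9 (-0.94) fell and Chad rose (1.25, log2), while Acan (0.31) and Col2a1 (0.57) were not called. The mean of 5 matched osteoblast markers was 12.32 and 12.09 at P7, against 9.17 and 9.32 at P3, and the list was thus higher on both P7 arrays. The Schwann cell list was 12.34 and 12.27 at P7, against 11.42 and 11.47 at P3. The part of these cells in the rise of Itga10 was not tested.

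Itga1, the collagen receptor of vessel wall, fibroblasts and Schwann cells, fell by 0.68 ± 0.16 at P10 (7.78 ± 0.05, SD, n = 2, against 8.46 ± 0.04 at P0, adjusted p = 0.00958). That call was lost without P0 replicate 1 or P10 replicate 1 (adjusted p = 0.0579 and 0.0648). At P14 the fall was 0.94 ± 0.16 (adjusted p = 0.00143), which held without any 1 array. Itga2, the platelet and epithelial collagen receptor, was not called, with stage means between 6.50 and 6.78.

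Among the 8 chains of receptors that read the RGD motif in fibronectin, vitronectin, fibrinogen and latent TGF-beta, Itga8 and Itgb6 fell and Itgb8 rose. Itga8, a receptor chain for nephronectin, read 13.21 and 13.28 at P0, 13.22 and 13.29 at P3, 12.02 and 12.51 at P7, 11.88 and 11.82 at P10, 11.57 and 11.64 at P14, and 11.23 and 11.05 at P21. The P0 and P3 arrays were nearly equal, and all later arrays lay below them. Itga8 fell by 0.99 ± 0.15 at P7 against P3 (adjusted p = 0.002) and by 1.39 ± 0.15 at P10 against P0 (adjusted p = 0.000101), and both calls held without any 1 array.

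Itgb6, an epithelial chain that activates TGF-beta, read 6.17 and 6.16 at P0, 6.75 and 5.64 at P3, 5.25 and 5.41 at P7, 4.63 and 4.90 at P10, 4.82 and 4.43 at P14, and 4.53 and 4.66 at P21. From P10 on both arrays were dim, so its fall at P10 against P0 was at least 2.07-fold (adjusted p = 0.00452). It was at least 2.08-fold lower at P14 (adjusted p = 0.00234). The mean of 7 markers of cochlear epithelium was 9.70 and 9.95 at P10, against 11.26 and 11.49 at P0, and its part in the falls of Itga8 and Itgb6 was not tested.

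Itgb8, which binds latent TGF-beta and is made by glia, read 12.33 and 12.03 at P0, 12.57 and 12.52 at P3, 12.95 and 12.83 at P7, 12.82 and 12.78 at P10, 12.62 and 12.89 at P14, and 12.88 and 12.77 at P21. All arrays from P3 on lay above both P0 arrays. It rose by 0.71 ± 0.13 at P7 (adjusted p = 0.00469) and by 0.62 ± 0.13 at P10 (adjusted p = 0.0051). Without P0 replicate 2 these values were 0.56 and 0.47, under a fold of 1.5.

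Itga2b, the platelet fibrinogen receptor chain, was 0.89 ± 0.20 higher at P14 than at P0 (8.47 ± 0.45, SD, n = 2, against 7.58 ± 0.10 at P0, adjusted p = 0.00678). Without P14 replicate 1 the rise was 0.57, and without P0 replicate 1 its adjusted p was 0.0507. Itgb5, a vitronectin receptor chain, was called by the F-test (adjusted p = 0.0309) and in no comparison of 2 stages, with stage means between 10.21 at P7 and 10.84 at P21. At P10 against P0 it changed by -0.49 (adjusted p = 0.0493), under a fold of 1.5, but 2 of its other probe sets were called lower. Itgav, the common alpha partner of these beta chains, stayed within 12.57 and 12.93, and Itga5, the fibronectin receptor chain, within 5.72 and 6.12, and neither was called.

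**Figure D4:**
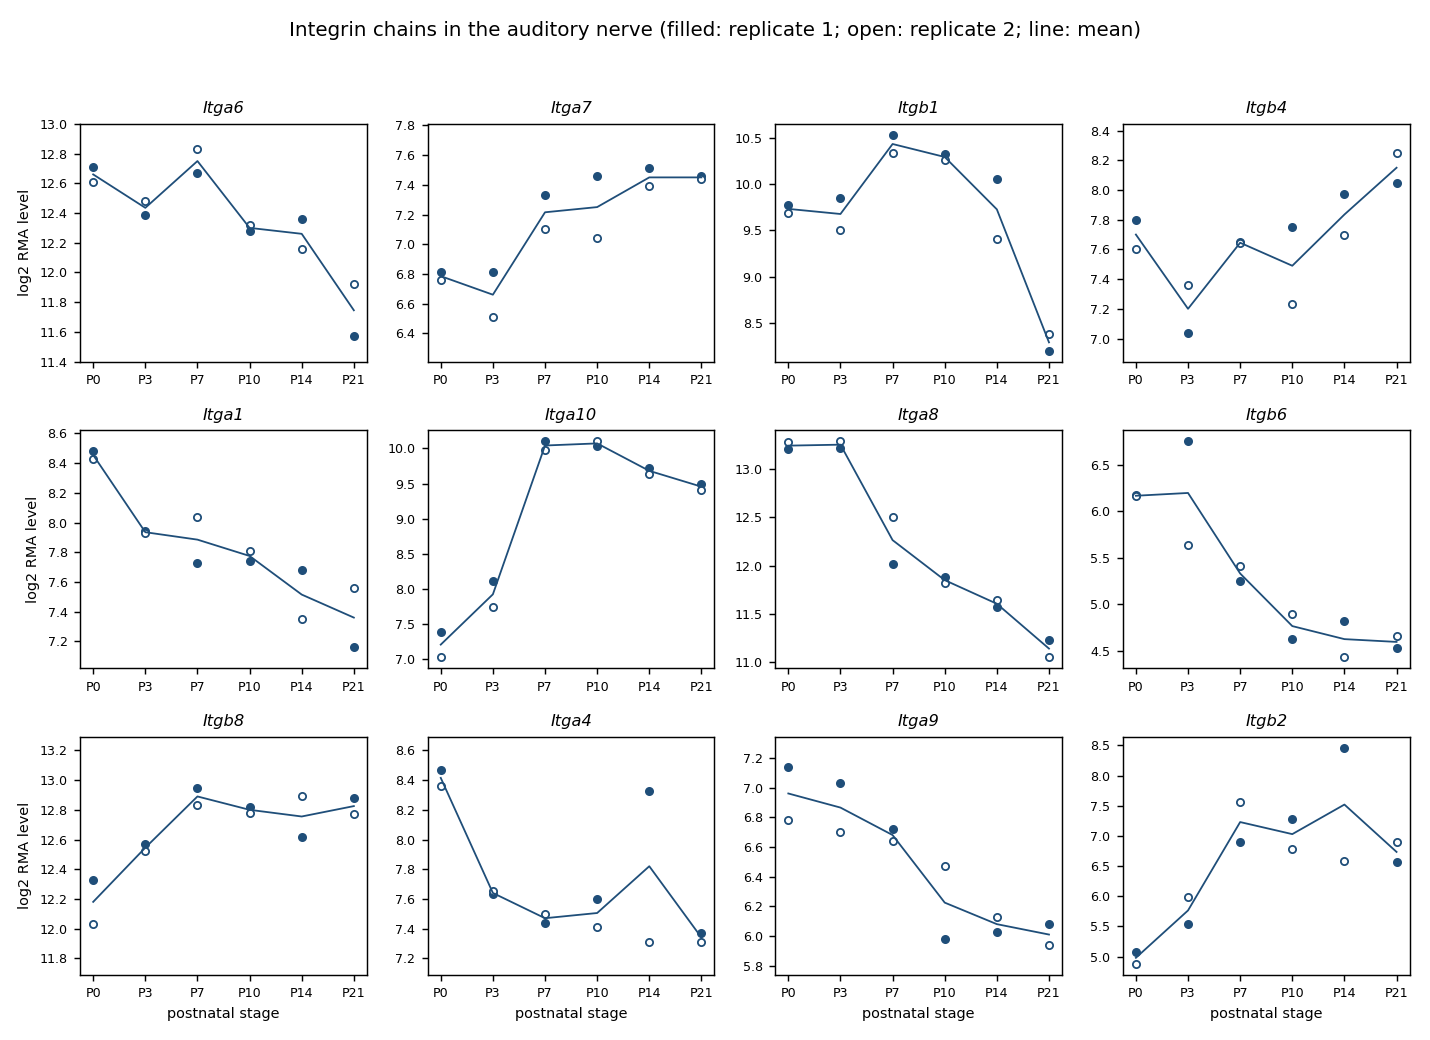
Log2 RMA level of 12 integrin chains on each of 12 arrays at P0, P3, P7, P10, P14 and P21 (stages evenly spaced, filled points replicate 1, open points replicate 2, line the mean, each panel with its own axis). Itga10 read 10.10 and 9.98 at P7, against 8.11 and 7.74 at P3, and Itgb1 was lowest at P21 (8.20 and 8.38).

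The chains called by P10 include some whose annotated start is also the outer end of the gene. Their upstream sequence is shown so that chains called higher at P7 than at P0 (Itga10, Itgb1 and Itgb8) can be set beside chains that fell. The latter are Itga1 and Itga4, both lower at P10 on the probe set used. Itgb1 was not called at P10 against P0 (0.56) and was lower at P21 (-1.44). Of the 5 chains, only Itga10 kept its calls at P7 and P10 whichever 1 array was left out. RefSeq promoters of GRCm38.p6 were matched for 23 of 35 members. Of 16 members called at P7 or P10 against P0, 11 had a single entry and 5 of these began at the end of the gene. The 250 bases before the start are printed 5′ to 3′ on the strand of the gene. Capitals mark matches, on either strand, to any of 5 short motifs that are spelled out after the sequences. No matches overlapped.
Itga10: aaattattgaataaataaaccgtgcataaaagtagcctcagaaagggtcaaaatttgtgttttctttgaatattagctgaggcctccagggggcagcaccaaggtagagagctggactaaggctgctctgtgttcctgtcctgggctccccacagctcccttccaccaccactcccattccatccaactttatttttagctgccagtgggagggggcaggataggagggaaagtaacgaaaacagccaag
Itgb1: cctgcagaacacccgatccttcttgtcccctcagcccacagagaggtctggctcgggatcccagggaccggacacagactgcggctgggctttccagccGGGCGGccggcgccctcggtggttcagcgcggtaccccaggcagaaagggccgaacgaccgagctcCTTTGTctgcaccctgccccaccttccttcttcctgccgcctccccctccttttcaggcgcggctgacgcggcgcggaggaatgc
Itgb8: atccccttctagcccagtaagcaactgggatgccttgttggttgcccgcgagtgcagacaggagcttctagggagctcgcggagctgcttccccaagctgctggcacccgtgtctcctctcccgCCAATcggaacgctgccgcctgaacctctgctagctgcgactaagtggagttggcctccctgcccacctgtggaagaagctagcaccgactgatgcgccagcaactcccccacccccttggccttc
Itga1: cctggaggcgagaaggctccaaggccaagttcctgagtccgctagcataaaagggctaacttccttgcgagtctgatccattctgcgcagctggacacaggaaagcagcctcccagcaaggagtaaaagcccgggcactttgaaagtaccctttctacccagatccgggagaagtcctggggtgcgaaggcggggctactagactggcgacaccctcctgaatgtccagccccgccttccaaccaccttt
Itga4: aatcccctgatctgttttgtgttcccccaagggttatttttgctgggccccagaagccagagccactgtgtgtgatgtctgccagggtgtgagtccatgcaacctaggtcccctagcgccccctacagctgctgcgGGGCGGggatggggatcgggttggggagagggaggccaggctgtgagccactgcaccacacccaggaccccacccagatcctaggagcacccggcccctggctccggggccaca

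These windows lie at chr3:96645334-96645583 (plus strand) for Itga10, chr8:128685404-128685653 (plus strand) for Itgb1, chr12:119238277-119238526 (minus strand) for Itgb8, chr13:115101965-115102214 (minus strand) for Itga1 and chr2:79255176-79255425 (plus strand) for Itga4. Their base composition differed among the chains higher at P7: the GC content was 48.0% with 2 CpG for Itga10, 68.0% with 21 for Itgb1 and 62.4% with 12 for Itgb8. Of the falling chains, Itga1 had 57.6% with 10 CpG and Itga4 64.0% with 6. The median over 32851 promoters was 52.4% with 6 CpG. Of the printed windows, those of Itgb1 and Itga4 held the letters GGGCGG, the GC box bound by Sp1. These letters were in 9 of 26 member windows, and in 32.7% of all promoters of this length. The letters ACAAAG, the core read by SOX proteins, were found in Itgb1 alone of the printed windows. They were in 2 of 26 member windows and in 16.5% of all promoters. The CCAAT box, searched by those letters, was found in Itgb8 alone of the printed windows. It was in 4 of 26 member windows and in 33.8% of all promoters. The AP-1 motif, searched as TGANTCA, was found among the 26 member windows in that of Itgax only, and in 6.75% of all promoters. The letters TATAAA, which 12.4% of all promoters hold, were in none of the 26 member windows. Itga10 and Itga1 held none of the 5 motifs. A match is a run of letters and not a measured binding site.

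Chains of leukocyte receptors, with alpha4 and alpha9, formed the last set of 9. Itgb2, the beta chain that pairs with Itgal, Itgam and Itgax, read 5.08 and 4.88 at P0, 5.54 and 5.99 at P3, 6.90 and 7.56 at P7, 7.28 and 6.78 at P10, 8.46 and 6.58 at P14, and 6.57 and 6.90 at P21. All 10 later arrays lay above both P0 arrays. Itgb2 was 2.05 ± 0.48 higher at P10 (adjusted p = 0.00971) and 2.54 ± 0.48 higher at P14 (adjusted p = 0.00273) than at P0. Its P0 values lay near the lower quartiles of those arrays (5.06 and 5.12), and replicate 2 lay below. The size of its rises against P0 is therefore uncertain at every stage. The call at P10 was lost without P0 replicate 2 or P10 replicate 1 (adjusted p = 0.06 and 0.0788), that at P7 (2.25 ± 0.48) without either P0 array or P7 replicate 2 (adjusted p = 0.0528, 0.0724 and 0.0664), and that at P14 held. The mean of 8 matched macrophage and microglia markers was 9.45 and 9.34 at P10, against 8.40 and 8.16 at P0. The neutrophil and marrow list was 10.19 and 9.26 at P10, against 7.20 and 6.87 at P0. The lymphocyte list was 7.01 and 6.70, against 5.49 and 5.72. The part of these cells was not tested.

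Itga4, a leukocyte and neural crest receptor for VCAM1 and fibronectin, read 8.47 and 8.36 at P0, 7.63 and 7.65 at P3, 7.44 and 7.50 at P7, 7.60 and 7.41 at P10, 8.33 and 7.31 at P14, and 7.37 and 7.31 at P21. It fell by 0.94 ± 0.25 at P7 (adjusted p = 0.0273) and by 0.91 ± 0.25 at P10 (adjusted p = 0.0196), with all P3 to P10 arrays below both P0 arrays. Leaving out any 1 of the 4 arrays compared ended the call, with an adjusted p of 0.081 to 0.14 at P7 and 0.0614 to 0.105 at P10. No other probe set of Itga4 was called at P10, where the brightest of these others changed by -0.22. At P21, 1 other was called lower (-0.66). The mean over all Itga4 probe sets was not called at P10 or P21. Itga9, a receptor chain for tenascin C and osteopontin, fell by 0.73 ± 0.18 at P10 (6.22 ± 0.35, SD, n = 2, against 6.96 ± 0.25 at P0, adjusted p = 0.0119). That call was lost without P0 replicate 1 or P10 replicate 1 (adjusted p = 0.104 and 0.114), and the fall of 0.88 ± 0.18 at P14 (adjusted p = 0.00417) held without any 1 array.

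The P14 mice differed in these chains. Replicate 1 read over 1.5-fold higher than replicate 2 for 8 members: Itgb2 (8.46 and 6.58), Itgb3 (8.43 and 7.03), Itgam (6.09 and 4.74), Itgb2l (7.47 and 6.18), Itga4 (8.33 and 7.31), Itgal (7.73 and 6.73), Itgb1 (10.05 and 9.40) and Itga2b (8.79 and 8.15). Of all probe sets, 2.8% differed by as much between these mice, in either direction. At the other stages 0 to 3 members differed between replicates by as much, with 1.4% to 6.3% of all probe sets. The platelet list differed in the same direction as the neutrophil and marrow list, at 8.20 in replicate 1 and 7.17 in replicate 2, and the lymphocyte list at 7.57 and 6.77. The rise of Itgal at P14 (0.86 ± 0.26 against P0, adjusted p = 0.0265) rested on replicate 1: without it the value was 0.36 (adjusted p = 0.146). It was also lost without either P0 array (adjusted p = 0.0948 and 0.107). The part of blood or marrow cells was not tested.

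Itgb3, the beta chain of platelets and osteoclasts, was called neither between stages nor by the F-test but varied widely, at 6.94 and 6.95 at P21, against 8.34 and 9.21 at P7. Its change at P21 against P0 (-0.98) passed the test without either P14 array and with only the P21 and P0 arrays. The mean of 7 matched osteoclast markers was 6.36 and 6.50 at P21, against 8.91 and 9.77 at P7. Itgax, of dendritic cells and macrophages, was at least 1.24-fold higher at P7 than at P0, where it was dim (adjusted p = 0.0196). Leaving out either P0 array or P7 replicate 2 ended that call (adjusted p = 0.0876, 0.101 and 0.126). Itgam, of neutrophils and microglia, was dim at 4 stages and not called. Itgb2l, Itgb7 and Itgae, the last a receptor chain of T cells in epithelia, were not called either, although Itgb7 was called higher at P21 against P0 without P0 replicate 2.

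**Figure D5:**
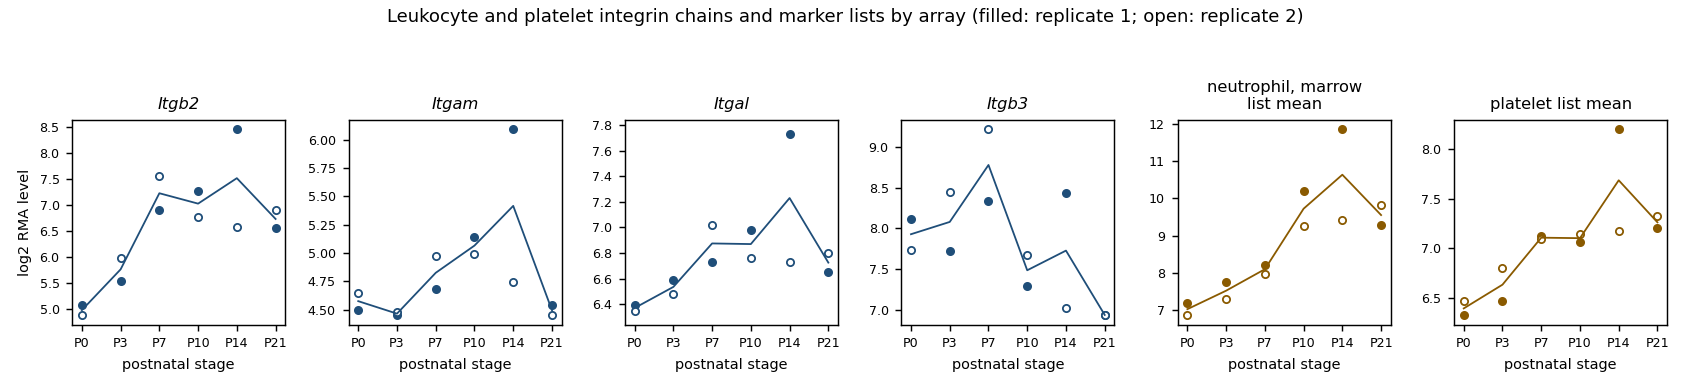
Log2 RMA level of 4 leukocyte or platelet integrin chains (blue) and the mean log2 level of the neutrophil and marrow list (8 genes) and the platelet list (6 genes, brown) on each of 12 arrays at P0, P3, P7, P10, P14 and P21 (stages evenly spaced, filled points replicate 1, open points replicate 2, line the mean, each panel with its own axis). At P14, replicate 1 lay above replicate 2 in every panel, at 8.46 and 6.58 for Itgb2.

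At P21, 18 members were called against P0. The falls were Itga8 (-2.10 ± 0.15), Lama4 (-2.10 ± 0.16), Itgb6 (at least 2.01-fold), Itgb1 (-1.44 ± 0.20), Lamb1 (-1.24 ± 0.10), Itga1 (-1.09 ± 0.16), Itga4 (-1.08 ± 0.25), Itga9 (-0.95 ± 0.18), Itga6 (-0.91 ± 0.13) and Lamc1 (-0.85 ± 0.14). The rises were Itga10 (2.24 ± 0.15), Itgb2 (1.75 ± 0.48), Lamc3 (1.38 ± 0.16), Lamb3 (1.27 ± 0.22), Lama1 (1.12 ± 0.28), Itga2b (1.04 ± 0.20), Itga7 (0.67 ± 0.15) and Itgb8 (0.64 ± 0.13). Of these, the call of Itgb2 was lost without either P0 array or P21 replicate 2 (adjusted p = 0.0538, 0.0738 and 0.0776), that of Lama1 without P0 replicate 2 or P21 replicate 2 (adjusted p = 0.077 and 0.0692), and Itgb8 was 0.49 without P0 replicate 2.

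The mean of Itgb1 was 9.73 at P14, as at P0, after a drop from P10 that was not called (-0.56). The P14 mice differed, and replicate 2 already lay below both P0 arrays (9.77 and 9.69). Whether the fall below P0 came before or after P14 is thus not settled. Itgb1 read 8.20 and 8.38 at P21, against 10.05 and 9.40 at P14, a change of -1.44 ± 0.20 (adjusted p = 0.0104). Without P14 replicate 1 the change was -1.11 (adjusted p = 0.0732). Lamc1 was also lower than at P14 (-0.67 ± 0.14, adjusted p = 0.0338), a call lost on leaving out any 1 of 7 arrays (adjusted p = 0.052 to 0.266). All P21 values stand beside the shift in RNA balance. With the Actb balance as a covariate, 3 members were called at P21 against P0: Itga10 (2.78 ± 0.52, adjusted p = 0.0427), Itga8 (-2.79 ± 0.49, adjusted p = 0.0371) and Lama5 (-1.77 ± 0.34, adjusted p = 0.0445). The median standard error of the members was then 0.54, against 0.16 without the covariate, and all probe sets called numbered 605, against 12262. Among the 18 calls, the sign turned for Itgb1 (0.32), Itga4 (0.38) and Itgb6 (0.43). Because the balance separated P21 from every other stage, age and RNA completeness cannot be told apart there.

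The 35 members had 41 further probe sets, on 21 genes. Of 16 that belong to genes called at P10 against P0, 7 had the same call, 0 the opposite one and 9 none, 2 of which were dim at all stages. At P21 the numbers were 13, 0 and 8 of 21, with 5 dim at all stages. The other probe set of Itga8 fell further, by 2.07 at P10 and by 4.10 at P21. Both other Lamb1 probe sets that were called fell by 1.05 and 1.08 at P10. Those of Itgb1 that were not dim fell by 1.40 and 1.16 at P21 but changed by 0.10 and 0.14 at P10, where the probe set used changed by 0.56, none of them called. For Itgb5, not called on the probe set used, 2 others fell by 0.80 and 0.73 at P10 (adjusted p = 0.00128 and 0.0026), and the mean over its probe sets was also called lower.

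Partners of these chains were counted from 4 lists, with the calls against P0. Set beside each list, 11% of all genes, read in the same way, were higher and 13.5% lower at P10, and 15.3% and 16.9% at P21. Of 13 other components of the basal lamina, 4 were higher and 5 lower at P10. The type IV collagen chains split: Col4a4 and Col4a3, of the network found in glomerulus and cochlea, were 8.94-fold (adjusted p = 6.85e-07) and 7.86-fold higher (adjusted p = 1.31e-05), whereas Col4a2, of the network common to all basal laminae, was 2.39-fold lower (adjusted p = 0.00203). Ntn4, a laminin-related netrin, was 6.0-fold higher (adjusted p = 4.43e-06). Col18a1, the source of endostatin, was 5.48-fold lower (adjusted p = 3.76e-05) and Nid2, a nidogen that links laminin to collagen, 3.40-fold lower (adjusted p = 8.64e-05). At P21, 3 of the 13 were higher and 5 lower.

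Of 11 matched non-integrin laminin receptors and members of the dystroglycan complex, of 13 listed, 4 were higher and 1 lower at P10. Drp2, which joins dystroglycan to periaxin in myelinating Schwann cells, was 4.44-fold higher (adjusted p = 9.73e-06), Bcam, a receptor for laminin alpha5, 2.53-fold (adjusted p = 0.000454) and Utrn, the Schwann cell relative of dystrophin, 2.11-fold (adjusted p = 0.000336). Sntb1, a syntrophin, was 1.62-fold lower (adjusted p = 0.0262). At P21, 4 were called, all of them higher. Of 14 matched adaptors and signalling partners of integrins, 3 were higher and 1 lower at P10, led by Lims2, a partner of integrin-linked kinase (4.77-fold higher, adjusted p = 2.86e-05), and Tln2, a talin (2.24-fold lower, adjusted p = 5.34e-05). At P21 the counts were 4 and 1.

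Of 9 matched ligands other than laminins, 2 were higher and 2 lower at P10, and 1 higher and 5 lower at P21. Npnt, the ligand of alpha8, was 1.99-fold higher at P10 (adjusted p = 0.0022) but 2.01-fold lower at P21 (adjusted p = 0.00127), while Itga8 was lower at both. Tnc, the tenascin that alpha9 binds, was 2.92-fold lower at P10 (adjusted p = 0.0158) and 9.95-fold lower at P21 (adjusted p = 0.000128), and Itga9 was lower at both. Fn1, fibronectin, was 1.88-fold lower at P10 (adjusted p = 0.016) and 1.95-fold lower at P21 (adjusted p = 0.00848), while Itga5 was not called. Tgfb1 was 1.83-fold higher at P10 (adjusted p = 0.0128). At P21, Thbs1 was 3.35-fold and Icam2 2.46-fold lower, and Vtn, vitronectin, was 2.13-fold higher. These lists were read on the same arrays as the members, so the P21 values carry the same shift in RNA balance.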

How the data were processed

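Total RNA of the auditory nerve was hybridized to Affymetrix GeneChips for mouse, 2 per stage. The authors processed their scans in Expression Console, using both RMA and MAS5, and versions are not given in the sources used here. The deposited values are log2 RMA values, whose quartiles are near equal on all 12 arrays, and quantile normalization of this kind removes any overall shift between stages. The table held 0 columns of other samples. Without its 64 controls, the table of 45101 probe sets left 45037 to test. In the platform annotation 34945 of these carry 1 gene symbol, 932 carry several and 9160 carry none. All 35 member symbols matched a RefSeq symbol.

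The functions lmFit and eBayes of limma 3.58.1 (R 4.3.3) were fitted to all 12 arrays in 6 stage groups, which leaves 6 residual degrees of freedom. The Benjamini-Hochberg adjustment took in all 45037 tested probe sets. The limits were an adjusted p of 0.05 and a fold of 1.5. In the F-test over the 6 stages, the highest stage mean had to exceed 1.5 times the lowest. Where both arrays of 1 stage were dim, the fold was taken against the lower quartile of those arrays and given as at least. Values on every array are given for the called members with the 4 largest rises and 4 largest falls at P10 and at P21 against P0, for up to 2 in each direction of each step, and for the chains of Schwann cell laminin and its receptors. Other members are given by means or ranges, and up to 3 called partner genes are named per list and direction. For ligands other than laminins, every gene called at P10 or P21 against P0 is named. The number of arrays limits the precision. Members and lists were chosen with earlier results of these data known, so counts over them are descriptions. Alternatives were other eBayes settings, array weights, a replicate block, leaving out each array, the 4 arrays of 2 stages alone, other probe set choices, the Actb balance as a covariate, and the methods' t-test. A further one, leaving out both P21 arrays, was chosen after seeing the data.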

Additional observations from a re-analysis of the deposited data

How the results depend on the processing

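Leaving out each array in turn moved the number of members called to between 0 and 5 at P3 against P0, 3 and 11 at P7, 7 and 14 at P10, 13 and 16 at P14, and 16 and 20 at P21. The range was 5 to 8 at P7 against P3, 0 at P10 against P7, 0 to 1 at P14 against P10, 0 to 7 at P21 against P14, and 19 to 26 over all stages. Array weights gave 1 call at P10 against P7 and 1 at P21 against P14. With only the 4 arrays of the 2 stages compared, P3 against P0 and P21 against P14 each gave 0. Averaging a gene's probe sets gave 1 call at P10 against P7 and 5 at P21 against P14. With the Actb balance as a covariate, P21 against P0 gave 3 calls and P21 against P14 gave 0, and the P21 change turned its sign for Itga4 (0.38), Itgb1 (0.32) and Itgb6 (0.43). The methods' t-test without adjustment gave 5 calls at P7 against P3, 1 at P10 against P7 and 1 at P21 against P14, and after Benjamini-Hochberg it gave 0 in every comparison. Deviations of same-numbered arrays correlated between -0.12 and 0.32 over 15 pairs of stages, with 6 pairs over 0.1. The labels name no batch, and these values do not settle whether same-numbered arrays shared one. With a replicate block the counts were 4, 10, 13, 16 and 18 at P3, P7, P10, P14 and P21 against P0, and 24 over all stages, and no member's call at P10 or P21 against P0 changed. Of 31 called changes of single members at P10 or P21 against P0, 8 were called under each of 20 alternatives, not counting the methods' t-test, and 23 were lost under at least 1. Of 39 that were not called, 9 were called under at least 1. With 2 mice per stage, changes near 1.5-fold may be missed.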
